A study of Mesocricetus auratus with 38 samples.

Results

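The genes described here are the 5 that build long polyunsaturated fatty acids (PUFAs) in the liver, the desaturases Fads2 and Fads1 and the elongases Elovl5, Elovl2 and Elovl1. They were chosen by gene symbol from the deposited tables of estimated counts and TPM. All 5 were present among 14631 symbols, and all 5 were among the 9099 genes that passed the filter on low counts. Liver RNA of male Golden Syrian hamsters, aged 22 weeks per the labels, was sequenced in 38 libraries from 4 groups, each library being taken as 1 animal because the labels name none. The control group (Chow diet in the labels, 9 libraries) was kept for 12 weeks on a diet whose fat gave 11% of its energy, and the HFD group (10 libraries) for as long on a cholesterol-supplemented high-fat diet whose fat gave 23%. The HFD + MI_D1 group (Dose I, 9 libraries) and the HFD + MI_D2 group (Dose II, 10 libraries) ate the same HFD and were given combined metabolic activators (CMA) in the last 4 weeks, while the HFD group was given the vehicle. CMA is a mixture of L-carnitine, N-acetylcysteine (NAC), nicotinamide riboside (NR) and betaine. L-carnitine, NAC and NR were each given at 200 mg/kg in Dose I and 400 mg/kg in Dose II, and betaine at 400 and 800 mg/kg, respectively. Every animal was killed after a daytime fast of 6 hours. Both diets contained flaxseed and safflower oils, which supply the plant PUFAs on which these enzymes act. Diet fat, cholesterol and the make-up of the fat differed together between the control group and the other groups.

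Linoleic and alpha-linolenic acid come from the diet, and the liver converts them to arachidonic acid and docosahexaenoic acid by alternating desaturation, which adds a double bond, and elongation, which adds a carbon pair. Fads2 encodes the delta-6 desaturase that opens the pathway and Fads1 the delta-5 desaturase that acts after the first elongation. Elovl5 elongates the shorter PUFAs, Elovl2 the longer ones on the way to docosahexaenoic acid, and Elovl1 mainly elongates saturated and monounsaturated very long chains. Transcription of the desaturases and of Elovl5 is known to be raised by SREBP-1c and PPAR-alpha and lowered by dietary PUFAs.

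Total estimated counts were 4.08e+06 to 1.04e+07 per library. One control library, C105, stood apart (libraries are named C for control, H for HFD, DI for Dose I and DII for Dose II, with the number in their labels), with a score of 19.2 on the first principal component against -23.1 to 12.3 in the other 37 libraries, and the study left out 1 control for this reason. Results are therefore from the 37 other libraries, and values with C105 are given where they change a call. Albumin (Alb), the main secreted hepatocyte protein, had a mean level of 189720 ± 14664 CPM (reads scaled to the library's total; SD, n = 8) in control livers and of 136274 ± 19971 CPM (SD, n = 10) in HFD livers. Apoa1, a hepatocyte apolipoprotein, was at 5946 ± 1314 CPM and 6758 ± 1684 CPM in the same groups. The adipocyte genes Adipoq and Lep were at 0 in every library. In bulk RNA, fewer cells of a type and less RNA per cell cannot be told apart. The quantification could divide reads between similar transcripts, so values of the related genes Fads1, Fads2 and Fads3 carry that uncertainty.

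On the TPM scale, which divides by transcript length and so allows levels to be compared between genes, Elovl2 was the most abundant of the 5 genes. In the control group its level was 474 ± 74.8 TPM, followed by Elovl5 at 225 ± 47.9 TPM, Fads2 at 158 ± 65.3 TPM, Fads1 at 93.9 ± 30.9 TPM and Elovl1 at 5.48 ± 1.34 TPM (mean ± SD, n = 8). This order held in 37 of 38 libraries, C105 included, and the exception was 1 library in which Fads2 exceeded Elovl5. The intervals of 1 SD around the means of Elovl5 and Fads2 overlapped in the control group, as did those of Fads2 and Fads1. Within single libraries, Elovl2 lay above Elovl5, Fads2 above Fads1 and Fads1 above Elovl1 in all 38.

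In the Dose II group the same 5 genes stood at 258 ± 39.2 TPM for Elovl2, 124.8 ± 19.9 TPM for Elovl5, 69.8 ± 26.8 TPM for Fads2, 48.1 ± 18.2 TPM for Fads1 and 5.73 ± 0.996 TPM for Elovl1 (mean ± SD, n = 10). The order of the 5 means was therefore the same in the control group and in the Dose II group.

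The first comparison asks what the HFD did to the pathway. Both desaturases and the elongases Elovl5 and Elovl2 were lower in the HFD group than in the control group. Fads2 fell by 48.9%, Fads1 fell by 42.8%, Elovl5 fell by 30.3% and Elovl2 fell by 17.99%, and Elovl1 did not pass the test. Thus 4 of the 5 genes fell at an adjusted p under 0.1 (quasi-likelihood F test of edgeR, with adjustment by Benjamini and Hochberg over all 9099 tested genes), where 18.1% of all tested genes fell and 18.1% rose. With C105 included, 3 of the 5 fell, against 8.94% of 9045 tested genes.

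Fads2, the delta-6 desaturase and the first enzyme of the pathway, ranged from 281 to 871 CPM in the control group with a median of 427 CPM. In the HFD group it ranged from 144 to 447 CPM with a median of 236 CPM. The groups overlapped, but 8 of the 10 HFD livers lay below every control liver. Its log2 fold change was -0.97 (SE 0.23, 95% confidence interval -1.43 to -0.51, edgeR adjusted p = 0.00179), the largest fall of the 5 genes.

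Fads1, the delta-5 desaturase, ranged from 220 to 539 CPM in the control group (median 314 CPM) and from 109.002 to 336 CPM in the HFD group (median 191 CPM). Of the HFD livers, 9 of 10 lay below every control liver, and the tenth, H110, had the highest HFD value. The log2 fold change was -0.81 (SE 0.20, 95% confidence interval -1.21 to -0.40, edgeR adjusted p = 0.00301).

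Elovl5, the elongase that acts between both desaturation steps, ranged from 553 to 983 CPM in the control group (median 609 CPM) and from 346 to 667 CPM in the HFD group (median 412 CPM). C109 gave the value of 983 CPM, far above the other controls, and 8 of 10 HFD livers lay below every control. The log2 fold change was -0.52 (SE 0.12, 95% confidence interval -0.75 to -0.29, edgeR adjusted p = 0.00109), which was -0.40 without C109.

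Elovl2, the elongase of the last steps toward docosahexaenoic acid, ranged from 265 to 413 CPM in the control group (median 313 CPM) and from 199 to 334 CPM in the HFD group (median 256.4 CPM). The groups overlapped broadly, since 5 of 10 HFD livers lay below every control and 3 of 8 controls lay above every HFD liver. The log2 fold change was -0.29 (SE 0.12, 95% confidence interval -0.53 to -0.04, edgeR adjusted p = 0.0693). This call was the least secure of the 4, because with C105, whose Elovl2 level of 169 CPM was below all other controls, the log2 fold change was -0.21 (edgeR adjusted p = 0.325), and it was also lost when any one of C103, C108 and C109 or H113, H115, H117 and H118 was left out (log2 fold change -0.33 to -0.22 over the libraries left out, edgeR adjusted p 0.0415 to 0.192).

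Elovl1, the elongase of saturated and monounsaturated very long chains, was low, with 27 to 79 estimated counts per library. It ranged from 6.31 to 9.31 CPM in the control group (median 7.44 CPM) and from 7.28 to 11.5 CPM in the HFD group (median 8.94 CPM), with overlapping groups. The log2 fold change was 0.26 (SE 0.14, 95% confidence interval -0.02 to 0.53, edgeR adjusted p = 0.159). The ratio of a gene's counts to its TPM, divided by the library's total counts, is a measure of the transcript length assigned to it. This measure varied 3.06-fold between libraries for Elovl1 and at most 1.19-fold for the other 4 genes. The CPM and TPM values of Elovl1 therefore do not carry the same differences.

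**Figure D1:**
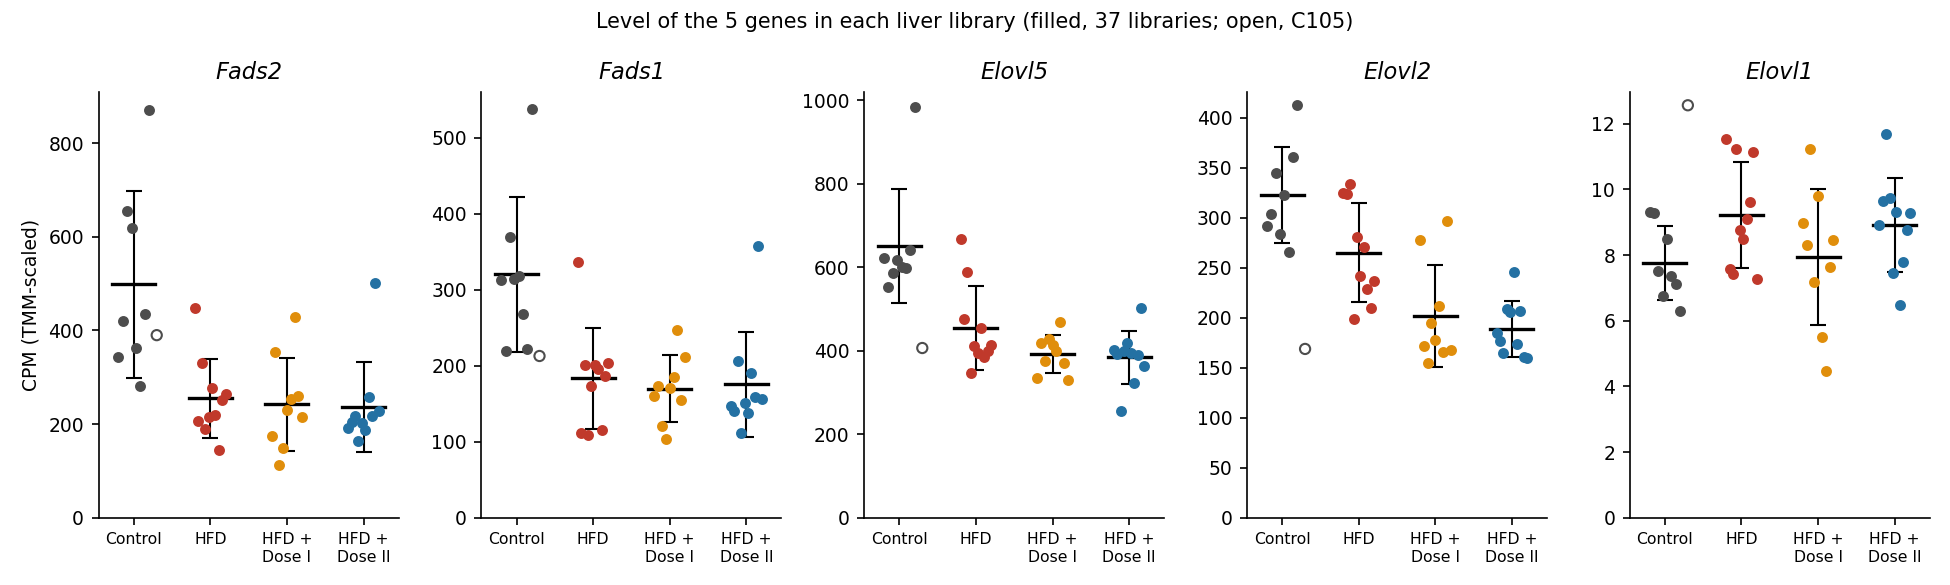
CPM of each of the 5 genes (y axis, from 0) in every liver library, by group (x axis). Filled points are the 37 libraries of the fit, horizontal and vertical bars their mean and SD, and open circles C105. Fads2, Fads1 and Elovl5 lie lower in the HFD group and in both dose groups than in the control group, Elovl2 lies lower again in the Dose II group (mean 189 CPM in Dose II against 265 CPM in HFD), and Elovl1 overlaps throughout.

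The second comparison asks whether CMA at Dose II changed these genes in animals on the HFD. Elovl2 fell by 28.8% against the HFD group, and the other 4 genes did not pass the test. One of the 5 genes was thus called lower, where 2.25% of all tested genes were called lower and 3.37% higher.

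In the Dose II group Elovl2 ranged from 160 to 245 CPM with a median of 181 CPM, against 199 to 334 CPM and a median of 256.4 CPM in the HFD group. All 10 Dose II livers lay below the HFD median, and 6 of 10 lay below every HFD liver. The log2 fold change was -0.49 (SE 0.11, 95% confidence interval -0.72 to -0.26, edgeR adjusted p = 0.0116). It stayed under the threshold with C105 in the fit (edgeR adjusted p = 0.0397) and in each fit without 1 library (edgeR adjusted p 0.00634 to 0.0276).

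Elovl5 ranged from 255.8 to 502 CPM in the Dose II group with a median of 393 CPM, close to the HFD median of 412 CPM. Its log2 fold change was -0.24 (SE 0.11, 95% confidence interval -0.46 to -0.02, edgeR adjusted p = 0.231). With limma-trend on log2(TPM + 1) it was -0.30 (adjusted p = 0.0889), under the threshold of 0.1, so for Elovl5 the call depended on the scale and the test. In that fit 439 of 9099 tested genes fell and 151 rose. The median log2 fold change of all tested genes was -0.060 there, against -0.0040 in edgeR.

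Fads1 ranged from 111.7 to 358 CPM (median 154 CPM) and Fads2 from 164 to 500 CPM (median 211 CPM) in the Dose II group. The highest of both came from the same liver, DII137, and the other 9 livers overlapped the HFD group. The log2 fold changes were -0.06 for Fads1 (SE 0.19, 95% confidence interval -0.45 to 0.32) and -0.11 for Fads2 (SE 0.22, 95% confidence interval -0.54 to 0.33), with edgeR adjusted p of 0.903 and 0.846. Both intervals reach past 0.3 in either direction, so smaller changes of the desaturases could not be told from none with these libraries. Elovl1 ranged from 6.49 to 11.7 CPM (median 9.10 CPM), with a log2 fold change of -0.05 (SE 0.13, edgeR adjusted p = 0.874).

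At Dose I the same test called none of the 5 genes (edgeR), where 0.0330% of all tested genes were called lower and 0.154% higher. Elovl2 alone of the 5 had an unadjusted edgeR p under 0.05, as did 844 of all 9099 tested genes. DESeq2 called 1 gene lower, Elovl2 (log2 fold change -0.39, adjusted p = 0.0822). Of the 4980 genes to which DESeq2 gave an adjusted p, it called 24 lower and 56 higher. Elovl2 ranged from 155 to 297 CPM in the Dose I group with a median of 178 CPM, and 6 of 9 livers lay below every HFD liver. Its log2 fold change was -0.39 (SE 0.12, 95% confidence interval -0.63 to -0.15, edgeR adjusted p = 0.193). Without DI120, which had one of the highest Elovl2 levels of its group, the edgeR adjusted p was 0.0991.

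The other 4 genes had log2 fold changes at Dose I of -0.21 for Elovl5 (SE 0.11, edgeR adjusted p = 0.584), -0.11 for Fads1 (SE 0.20, edgeR adjusted p = 0.904), -0.07 for Fads2 (SE 0.22, edgeR adjusted p = 0.948) and -0.21 for Elovl1 (SE 0.13, edgeR adjusted p = 0.644). The Dose I medians were 399 CPM for Elovl5, 171 CPM for Fads1, 231 CPM for Fads2 and 8.32 CPM for Elovl1. Every one of these 4 genes overlapped with the HFD group.

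The doses were also compared with each other. None of the 5 genes differed between Dose II and Dose I by edgeR or by DESeq2, and none had an unadjusted p under 0.05. Of all 9099 tested genes, 0% were called lower by edgeR, DESeq2 called 0 genes in either direction, and 271 had an unadjusted edgeR p under 0.05. The log2 fold change of Elovl2 from Dose I to Dose II was -0.10 (95% confidence interval -0.33 to 0.14), that of Fads1 was 0.05 (-0.35 to 0.44) and that of Fads2 was -0.03 (-0.48 to 0.42). Differences of a size inside these intervals are compatible with these libraries.

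Fads2, Fads1, Elovl5 and Elovl2 were also lower in both dose groups than in the control group. These 4 genes passed at both doses, where 20.1% of all tested genes fell at Dose I and 23.4% at Dose II. In the Dose II group every liver lay below every control liver for Elovl2 and for Elovl5, and in the Dose I group for Elovl5. Such complete separation, with every treated liver lower, held for 2.73% of all tested genes at Dose II and for 1.85% at Dose I. Elovl2 was lower by 0.68 at Dose I (log2 fold change -0.68, SE 0.12, edgeR adjusted p = 7.39e-05) and by 0.78 at Dose II (log2 fold change -0.78, SE 0.12, edgeR adjusted p = 3.57e-06). Elovl5 had log2 fold changes of -0.73 (SE 0.12, edgeR adjusted p = 1.86e-05) and -0.76 (SE 0.12, edgeR adjusted p = 2.83e-06). Fads2 had -1.04 (SE 0.24, edgeR adjusted p = 0.000834) and -1.07 (SE 0.23, edgeR adjusted p = 0.000272), and Fads1 had -0.92 (SE 0.21, edgeR adjusted p = 0.000870) and -0.87 (SE 0.20, edgeR adjusted p = 0.000714). Elovl1 had 0.04 and 0.21, neither of which passed (edgeR adjusted p = 0.849 and 0.239). These comparisons share the control libraries with HFD vs. control, and the dose comparisons share the HFD libraries, so they are not separate evidence of each other.

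**Figure D2:**
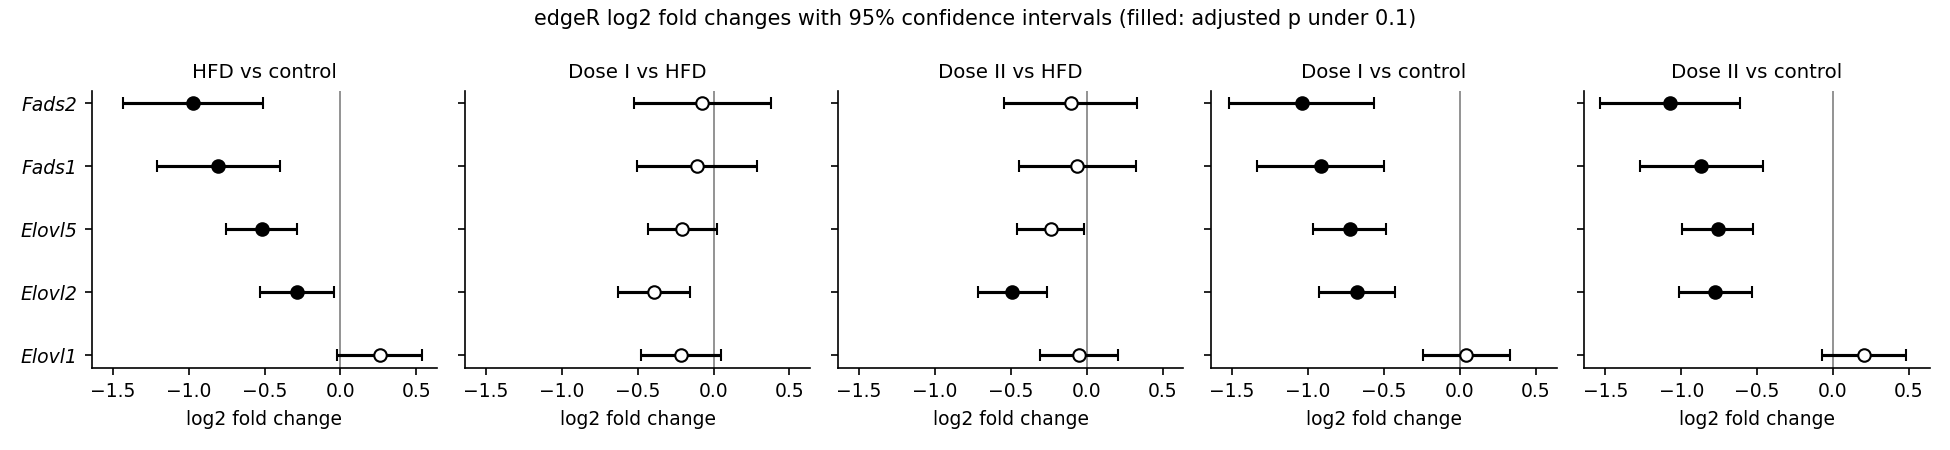
Log2 fold changes (x axis) of the 5 genes (y axis) in 5 comparisons, with 95% confidence intervals from edgeR over 37 libraries; filled points have an adjusted p under 0.1. Fads2 and Fads1 differ from the control group by a similar amount in the HFD and both dose groups, whereas Elovl2 goes from -0.29 in HFD vs. control to -0.78 in Dose II vs. control.

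Whether both desaturases, and the elongases Elovl2 and Elovl5, kept their proportion was tested with ratios of TPM within each library (8 permutation tests, Benjamini-Hochberg adjusted over them). The ratio of Fads2 to Fads1 was 1.63 in the control group, 1.51 in the HFD group, 1.47 at Dose I and 1.45 at Dose II (geometric means). None of its 4 comparisons passed, and the difference between the HFD and control groups was -0.11 on the log2 scale (exact two-sided permutation p = 0.465, adjusted p = 0.831). The desaturases were thus lower together in the HFD group without a detectable difference in their ratio.

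The ratio of Elovl2 to Elovl5 was 2.12 in the control group, 2.47 in the HFD group, 2.12 at Dose I and 2.07 at Dose II (geometric means of TPM ratios). It was higher in the HFD group than in the control group by 0.22 on the log2 scale (exact two-sided permutation p = 0.0144, adjusted p = 0.0732). It was lower in the Dose II group than in the HFD group by 0.25 on the log2 scale (difference -0.25, two-sided permutation test, 100000 resamples, p = 0.0183, adjusted p = 0.0732). Both comparisons use the same 10 HFD libraries. Both calls were close to the threshold and were lost when single libraries were left out, in 9 of 18 cases for HFD vs. control (C101, C104, C107 and C109 and H111, H114, H115, H116 and H117, permutation adjusted p up to 0.141) and in 10 of 20 for Dose II vs. HFD (H111, H114, H115, H116 and H117 and DII129, DII130, DII133, DII137 and DII138, permutation adjusted p up to 0.149). At Dose I the difference from the HFD group was -0.22 (exact two-sided permutation p = 0.149, adjusted p = 0.396).

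Over single livers, Fads1 and Fads2 moved together within the groups. After group means were removed from log2 CPM, Pearson's r was 0.81 and Spearman's rho 0.77 over 37 libraries (permutation p = 1e-05 for both, the smallest that 100000 permutations can give, adjusted p = 0.0001 over 10 pairs). It remained 0.74 without H110 and DII137, the libraries farthest from the median, and was 0.69 in the control group, 0.89 in the HFD group, 0.79 at Dose I and 0.95 at Dose II. The part of shared reads in this relation was not tested.

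The relations with the elongases were weaker. Elovl5 with Fads2 had r = 0.54 (permutation p = 0.00066, adjusted p = 0.0033) and rho = 0.29 (permutation p = 0.0875, adjusted p = 0.175), with r = 0.39 without C109 and H110. Elovl5 with Fads1 had r = 0.44 (permutation p = 0.0128, adjusted p = 0.0426), but rho = 0.10 (permutation p = 0.569, adjusted p = 0.711) and r = 0.20 without the same 2 libraries, so that relation rested on them.

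Elovl2 with Elovl5 had r = 0.38 (permutation p = 0.0186, adjusted p = 0.0465) and rho = 0.34 (permutation p = 0.0443, adjusted p = 0.148), with r = 0.55 without DI120 and DI127, and on log2(TPM + 1) it did not pass (r = 0.31, permutation adjusted p = 0.119). The pooled value hides different values within groups, which were 0.72 in the control group, 0.86 in the HFD group, -0.40 at Dose I and 0.24 at Dose II. Elovl2 with Fads1 was 0.04 over all libraries (permutation p = 0.812, adjusted p = 0.812), 0.53 in the control group, 0.39 in the HFD group, -0.13 at Dose I and -0.60 at Dose II. Differences between these within-group values were not tested.

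Elovl1 had negative r with the other 4 genes, between -0.20 and -0.40, of which those with Fads2 (r = -0.40, permutation p = 0.0242, adjusted p = 0.0484) and with Elovl5 (r = -0.32, permutation p = 0.041, adjusted p = 0.0684) passed. Their rho values were -0.38 and -0.30 and did not pass (adjusted p = 0.148 and 0.175), and the value with Fads2 was -0.19 without DI122 and DI126. On log2(TPM + 1) neither r passed (permutation adjusted p = 0.119 with Fads2 and 0.126 with Elovl5). With C105 included, Elovl1 with Elovl2 also passed on log2 CPM (r = -0.35, permutation adjusted p = 0.0736).

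**Figure D3:**
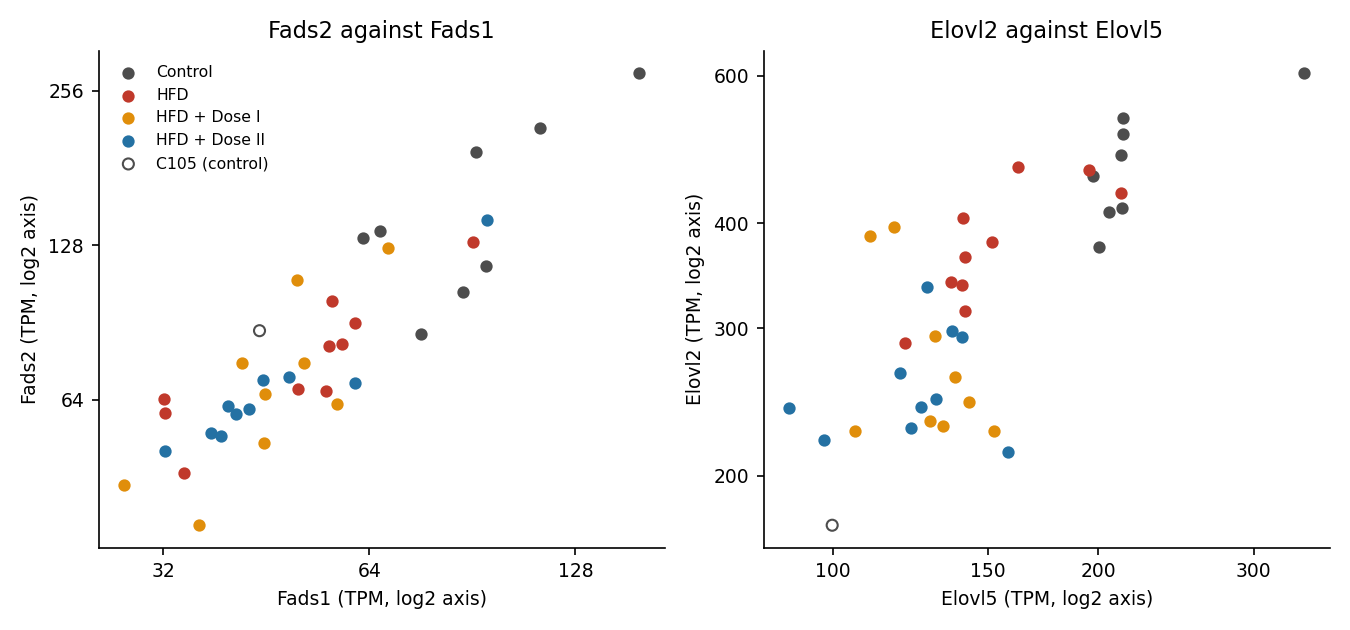
TPM of Fads2 against Fads1 (left) and of Elovl2 against Elovl5 (right) in each library, on log2 axes and coloured by group, with C105 as an open circle. The desaturases lie along 1 line across groups, while at similar Elovl5 levels most Dose II livers (mean Elovl2 258 TPM) lie below most HFD livers (mean Elovl2 379 TPM).

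Among 5930 genes with a mean of at least 10 CPM, the pattern of each member over the 37 group-centred libraries was compared with all others. The genes most like Fads1 were Fads2 (r = 0.81), Abhd2 (r = 0.70) and Slc16a13 (r = 0.67), and those most like Fads2 were Fads1, Slc26a1 (r = 0.73) and Igf2r (r = 0.72). Elovl5 was most like Aldh7a1 (r = 0.77), an aldehyde dehydrogenase, Dhrs7 (r = 0.74) and Cat (r = 0.70), which encodes the peroxisomal enzyme catalase. Elovl2 was most like Nek9 (r = 0.69), 0610040J01Rik (r = 0.65) and Hmgxb3 (r = 0.64), and Elovl1 was most like Efnb1 (r = 0.82), Gsn (r = 0.72) and Piezo1 (r = 0.72). These r values are the highest of many and describe these libraries, which share diet, tissue and sequencing.

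The enzymes that work beside the 5 genes were counted by list, and each count for the HFD group stands against the 18.1% of all tested genes that fell and the 18.1% that rose, with 2.25% and 3.37% for Dose II vs. HFD. With C105 included, 809 of 9045 tested genes fell and 600 rose in HFD vs. control, and 97 fell and 147 rose in Dose II vs. HFD. With so few genes in a list, a count of 1 or 2 is not set apart from these shares. Of the 5 tested genes of other elongases and desaturases, 1 rose in the HFD group, Fads6, a desaturase-like gene, from 55.99 ± 11.4 CPM (SD, n = 8) to 89.4 ± 38.4 CPM (SD, n = 10; log2 fold change 0.67, SE 0.19, edgeR adjusted p = 0.00917). Fads3, the paralogue of both desaturases, had a log2 fold change of -0.14 (edgeR adjusted p = 0.599), and Scd1, the stearoyl-CoA desaturase that makes oleic acid, had -0.29 (edgeR adjusted p = 0.359). The list's median log2 fold change was -0.05, against 0.01 over all tested genes and -0.52 over the 5 PUFA genes.

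After an elongase has condensed the chain, a reductase, a dehydratase and a second reductase complete each round. Of 5 tested genes of these steps 2 fell in the HFD group, the dehydratase Hacd3 (log2 fold change -0.39, SE 0.09, edgeR adjusted p = 0.00113) and the dehydratase Hacd2 (-0.24, SE 0.10, edgeR adjusted p = 0.0810). The reductases Hsd17b12 and Tecr had -0.27 and -0.16 (edgeR adjusted p = 0.180 and 0.306). Of 3 tested electron donors of the desaturases 1 fell, Cyb5r3, the cytochrome b5 reductase (-0.30, SE 0.12, edgeR adjusted p = 0.0539). With C105 included, 1 of the first list fell and Cyb5r3 did not pass.

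The last step to docosahexaenoic acid is a shortening of the chain in peroxisomes. Of 10 tested genes of that step 3 fell in the HFD group (3 also with C105 included): Abcd3, a peroxisomal fatty acid transporter (log2 fold change -0.62, SE 0.14, edgeR adjusted p = 0.000995), Crot, which moves shortened chains out (-0.49, SE 0.17, edgeR adjusted p = 0.0255), and Ehhadh, the L-bifunctional enzyme (-0.76, SE 0.20, edgeR adjusted p = 0.00450). At Dose II, Abcd3 fell further, from 296 ± 62.1 CPM to 203 ± 30.1 CPM (SD, n = 10 each; log2 fold change -0.55, SE 0.13, edgeR adjusted p = 0.0142).

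Genes that activate fatty acids to their CoA esters were mixed, with 2 of 7 that fell in the HFD group, Acsl1 (log2 fold change -0.38, SE 0.11, edgeR adjusted p = 0.0114) and Acsl5 (-0.71, SE 0.25, edgeR adjusted p = 0.0336), and 2 that rose, Slc27a4 (0.22, SE 0.09, edgeR adjusted p = 0.0489) and Slc27a5 (0.22, SE 0.09, edgeR adjusted p = 0.0657), of which neither rose with C105 included. Of 11 genes that place PUFAs in phospholipids or release them, 5 rose in the HFD group and 2 did so with C105 included, among them the phospholipases Pla2g15 (0.83, SE 0.21, edgeR adjusted p = 0.00356) and Pla2g6 (0.57, SE 0.19, edgeR adjusted p = 0.0237). Lpcat3, which puts PUFAs into phosphatidylcholine, had 0.05 (edgeR adjusted p = 0.808) and fell at Dose II, from 124.2 ± 27.8 CPM to 95.8 ± 17.8 CPM (SD, n = 10 each; log2 fold change -0.37, SE 0.12, edgeR adjusted p = 0.0907), a call lost with C105 in the fit. Of 8 tested genes listed as oxylipin enzymes 2 rose in the HFD group, Cyp2c70, a cytochrome P450 better known for the synthesis of muricholic bile acids (0.51, SE 0.19, edgeR adjusted p = 0.0394) and Ptges2, a prostaglandin E synthase (0.31, SE 0.10, edgeR adjusted p = 0.0243), and with C105 included 1 did.

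Among 19 tested regulators known to act on the PUFA genes, 6 fell and 5 rose in the HFD group, or 3 and 2 with C105 included. Ppara, which encodes PPAR-alpha, went from 102.03 ± 31.6 CPM (SD, n = 8) to 49.2 ± 18.05 CPM (SD, n = 10; log2 fold change -1.05, SE 0.22, edgeR adjusted p = 0.000699). Srebf2, the regulator of cholesterol synthesis, fell (-0.60, SE 0.14, edgeR adjusted p = 0.00117), as did Mbtps2, a protease that releases SREBPs (-0.65, SE 0.18, edgeR adjusted p = 0.00638), and Mlxipl, which encodes ChREBP, rose (0.56, SE 0.11, edgeR adjusted p = 0.000208). Srebf1, which encodes SREBP-1 and was named after its value was seen, rose (0.39, edgeR adjusted p = 0.0235).

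Of 9 lipogenic targets of SREBP-1c 6 fell in the HFD group (median log2 fold change -0.72), or 4 with C105, among them Acly, ATP citrate lyase (-3.11, SE 0.57, edgeR adjusted p = 0.000169), and Gpam, the first acyltransferase of glycerolipid synthesis (-0.78, SE 0.29, edgeR adjusted p = 0.0373). At Dose II 3 of 9 fell further, among them Acly (-2.17, SE 0.56, edgeR adjusted p = 0.0256) and Me1, malic enzyme (-1.07, SE 0.27, edgeR adjusted p = 0.0251). Of 20 cholesterol targets of SREBP-2 15 fell in the HFD group with or without C105 (median -0.71), led by Sqle, squalene epoxidase (-1.86, SE 0.21, edgeR adjusted p = 1.19e-07). At Dose II 3 of the 20 fell and 1 rose against the HFD group, and with C105 in the fit 2 fell and the rise did not pass.

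Of 18 PPAR-alpha targets 5 fell in the HFD group with or without C105, where 18.1% of all tested genes fell (median log2 fold change -0.12, against 0.01 over all tested genes), among them Cpt1a, the gate of mitochondrial fatty acid oxidation (-1.08, SE 0.17, edgeR adjusted p = 3.07e-05), and Cd36, a fatty acid transporter (-0.88, SE 0.13, edgeR adjusted p = 7.91e-06). At Dose II 1 fell against the HFD group, Plin2, which coats lipid droplets (-1.41, SE 0.46, edgeR adjusted p = 0.0864), a call lost with C105. Whether these target genes and the desaturases changed together was not tested.

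**Figure D4:**
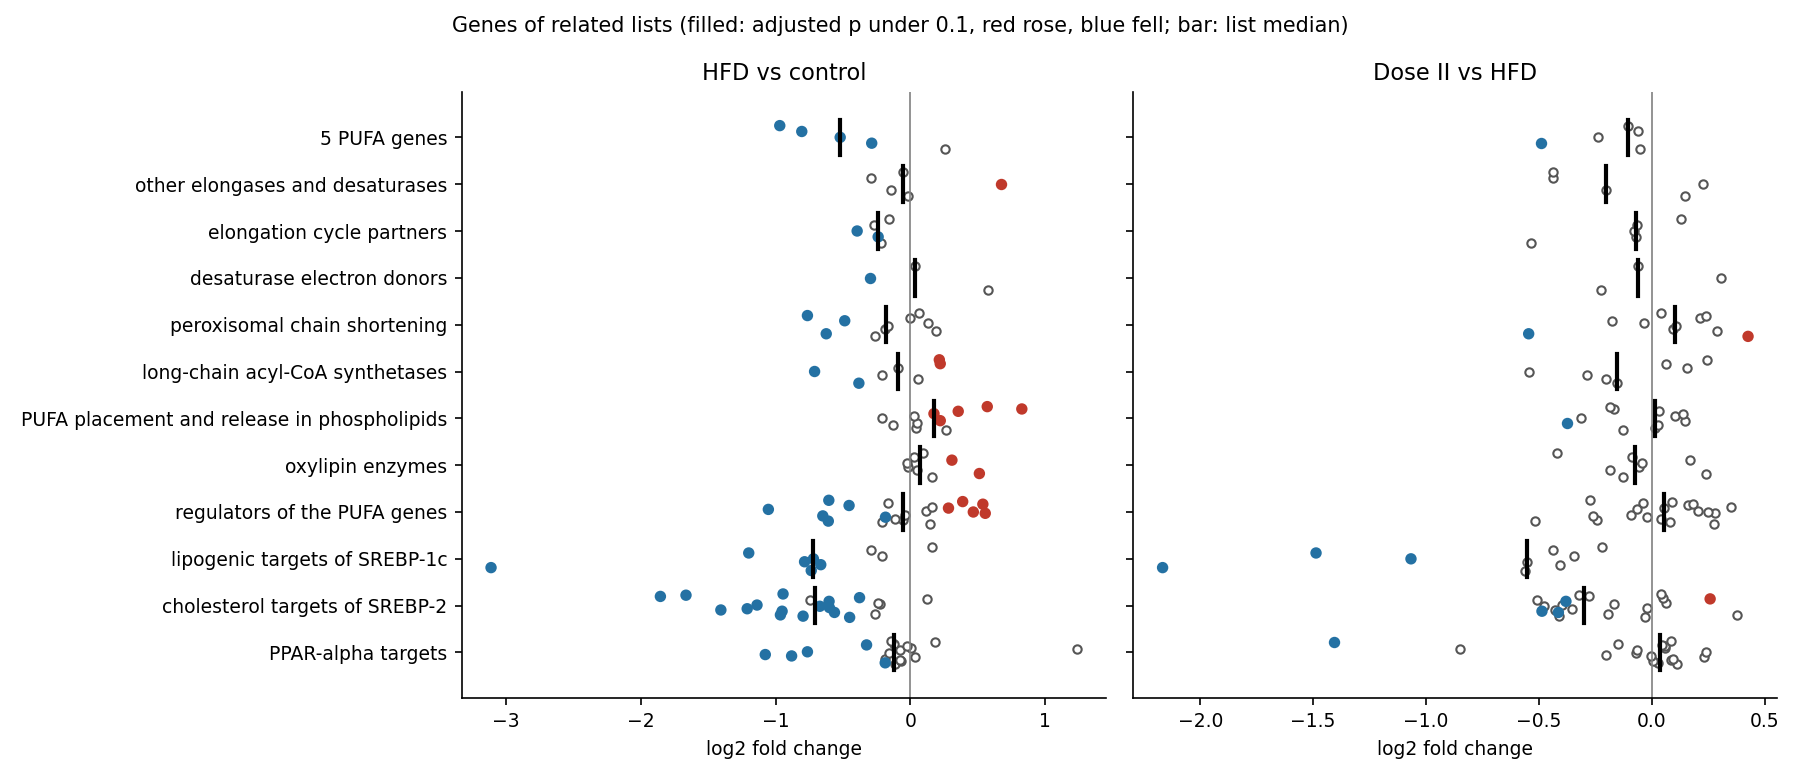
Log2 fold changes (x axis) of every tested gene of 12 lists (y axis), in HFD vs. control (left) and Dose II vs. HFD (right); filled points have an edgeR adjusted p under 0.1 (red rose, blue fell) and black bars are list medians. In the left panel 4 of the 5 PUFA genes lie to the left of 0 and Elovl1 to the right (median -0.52), the medians of the SREBP-1c and SREBP-2 targets are -0.72 and -0.71, and that of other elongases and desaturases is -0.05. In the right panel the last list's median is -0.20 and that of the 5 PUFA genes is -0.11.

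Markers of other liver cells were counted in the same comparisons. Of 17 Kupffer cell and macrophage markers 10 rose in the HFD group (4 with C105), among them Marco (log2 fold change 1.01, SE 0.16, edgeR adjusted p = 2.17e-05), where 18.1% of all tested genes rose. With C105 in the fit, 600 of 9045 tested genes rose in the HFD group. The summed level of the 17 markers ranged from 264 to 376 CPM in the control group and from 357 to 642 CPM in the HFD group. At Dose II 7 of the 17 fell and 1 rose against the HFD group (1 fell and 1 rose with C105), with a summed level of 270 to 482 CPM. Of all tested genes 2.25% fell and 3.37% rose in that comparison, and with C105 in the fit 97 of 9045 fell and 147 rose. The summed level of 13 hepatocyte markers, most of it Alb, ranged from 234258 to 254511 CPM in the control group, from 173204 to 225068 CPM in the HFD group and from 156310 to 207391 CPM at Dose II. Of 13 hepatocyte markers 5 fell and 1 rose in the HFD group (3 fell with C105), and at Dose II 1 rose. Of all tested genes 18.1% fell and 18.1% rose in the HFD group (8.94% fell with C105), and 3.37% rose at Dose II. The part of these shifts in the changes of the 5 PUFA genes was not tested.

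Markers of other cell types were counted in the same way. In the HFD group 2 of 11 endothelial markers rose, 1 of 9 stellate cell and fibroblast markers fell and 1 of 4 cholangiocyte markers rose, and at Dose II 2 of the 11 endothelial markers fell. For the HFD group, the endothelial count is near the 18.1% of all tested genes that rose and the stellate count is below the 18.1% that fell. For Dose II vs. HFD, 2.25% of all tested genes fell. With C105 in the fit, 1 stellate cell and fibroblast marker in the HFD group and 1 endothelial marker at Dose II passed among these lists. In that fit 809 of 9045 tested genes fell in HFD vs. control and 97 fell in Dose II vs. HFD. Cholangiocyte markers summed to at most 16.7 CPM and blood cell markers to at most 5.79 CPM in any of the 37 libraries. The adipocyte list held 1 tested gene, with a log2 fold change of -0.21 in the HFD group that did not pass.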

How the data were processed

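The authors sequenced liver RNA on an Illumina NovaSeq, quantified it with kallisto on MesAur1.0 (Ensembl release 101) and deposited estimated counts and TPM (scaled for transcript length and depth), both over 38 libraries and 14631 symbols. All columns were matched to labelled samples. The members and gene lists were chosen with earlier results of these data known.

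Deposited estimated counts were rounded to whole numbers, filtered with filterByExpr on 4 groups, scaled by TMM and tested with edgeR 4.0.16 in R 4.3.3 (quasi-likelihood F test, Benjamini-Hochberg adjustment, adjusted p under 0.1, the study's threshold), with 37 libraries in 1 fit. SEs were taken from the log2 fold change and the square root of its F value. CPM of single genes use TMM-scaled totals, and summed marker levels use each library's unscaled total. Permutation tests of TPM ratios (pseudocount 0.1) were two-sided, exact where a group held under 10 libraries and otherwise with 100000 resamples in SciPy 1.17.1. Correlations used log2 CPM (prior count 2), permuted within groups. Named were the 5 members, Alb and Apoa1, up to 4 genes of each list with the smallest adjusted p in HFD vs. control, those called at a dose, and 3 most alike genes per member; further members were named after their values were seen. A few list genes named by this rule were left out of the text.

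Alternatives were all 38 libraries, each library left out, RLE scaling, DESeq2 1.42.0, no filter, at least 10 counts in every library, only the 2 groups compared, limma-trend (limma 3.58.1) on log2(TPM + 1) or log2(TPM + 0.1), an offset for each library's length trend (lowess span 0.3), and a threshold of 0.05. The test was tested on simulated data: for HFD vs. control with 9099 genes, of which 200 were changed, it recovered 90% of changes of 1 and 60% of changes of 0.5 on the log2 scale. False calls were 9.09% of the simulated calls there and 12.6% in Dose I vs. HFD. In the data 3296 genes were called in HFD vs. control, far more than were changed in the simulation, so its recovery need not hold for the data. Within groups, no 2 libraries agreed within sampling noise (162 pairs). Sequences of the genes were not used here. With no labels of animals, p-values measure the spread between libraries.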

Additional observations from a re-analysis of the deposited data

Results flagged for a closer look

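In groups of 8 to 10 libraries, the highest or lowest value stood apart from the rest (Dixon's test at 95%) in 9 of 33 sets tested over the 5 genes and both ratios (for the genes, controls were taken with and without C105). The rate of about 1 in 20 holds for independent sets of normally distributed values. These sets share libraries, and CPM were not taken to logs, so the count cannot be set against that rate. C109 had 983 CPM of Elovl5 and 539 CPM of Fads1, each apart from the other controls with and without C105 in the group. H110 had 336 CPM of Fads1, apart from the other HFD livers. DII137 had 358 CPM of Fads1 and 500.2 CPM of Fads2, apart from the other Dose II livers. C105 had 12.6 CPM of Elovl1, apart from the other controls. DII131 had a log2 ratio of Fads2 to Fads1 of 0.18, the lowest of its group. Without C109 the log2 fold changes in HFD vs. control were -0.80 for Fads2, -0.65 for Fads1 and -0.40 for Elovl5, and all 3 stayed called (edgeR adjusted p = 0.0103, 0.0163 and 0.00696). Without DII137 the log2 fold change of Fads2 in Dose II vs. HFD was -0.30 and that of Fads1 was -0.24, and neither was called.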

How the results depend on the processing

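No paired analysis was possible because the replicate numbers run over all libraries and no groups share one. Of 270 values of single genes under other settings, 261 kept their direction and their side of the threshold, and of 555 with 1 library left out 532 did. Counts of genes called stayed within 1.5 times except at Dose I vs. HFD (1 with DESeq2, and 0 to 1 over the libraries left out) and Dose II vs. HFD (2 with limma-trend at either pseudocount). Elovl2 in HFD vs. control lost its call at a threshold of 0.05 and over all 38 libraries.

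Elovl1 changed sign at Dose I vs. control (-0.047 over all 38 libraries, -0.23 and -0.29 with limma-trend on log2(TPM + 1) and log2(TPM + 0.1), -0.035 to 0.12 with 1 library left out) and at Dose II vs. HFD (0.020 and 0.028 with limma-trend); these were not called, and the cause was not tested. With 1 library left out, Dose I vs. HFD was -0.20 to 0.030 for Fads1 and -0.22 to 0.053 for Fads2, Dose II vs. HFD was -0.24 to 0.078 for Fads1 and -0.30 to 0.021 for Fads2, and Dose II vs. Dose I was -0.13 to 0.13 for Fads1, -0.22 to 0.11 for Fads2 and -0.082 to 0.0083 for Elovl5. Elovl2 was -0.48 to -0.35 at Dose I vs. HFD.

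The log2 ratio of Elovl2 to Elovl5 was 0.18 to 0.25 in HFD vs. control, -0.29 to -0.18 in Dose II vs. HFD, -0.31 to -0.16 in Dose I vs. HFD (called without DI120 or DI127) and -0.094 to 0.060 in Dose II vs. Dose I. That of Fads2 to Fads1 was -0.11 to 0.026 in Dose I vs. HFD and -0.083 to 0.056 in Dose II vs. Dose I. Of 10 pairs of genes, 3 passed on log2(TPM + 1) in place of 6 on log2 CPM (Elovl2 with Elovl5 and Elovl1 with Fads2 or Elovl5 did not), and Elovl2 with Fads1 went to r = -0.021. Elovl1, at 27 to 79 counts, is limited by depth.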
